A study of Mus musculus with 8 samples.

Results

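The 42 genes described here encode the machinery that copies DNA and the kinases and factors that carry a cell from G1 into S phase. They were taken by symbol from a list of replication and G1/S genes, each represented by its single-gene microarray probe of highest mean, and all 42 had such a probe among the 19938 genes measured. The cells measured were migrating primordial germ cells (PGCs), from which eggs and sperm later derive, taken from mouse embryos at embryonic day 9.5, 1 embryo per array. The mutant embryos (Ror2Y324C/Y324C) were homozygous for the Y324C change in Ror2, a Wnt5a receptor of the tyrosine kinase family, and had 24, 22 to 23, 23 and 21 to 22 somites. The WT embryos (Ror2+/+) had 25, 25, 22 and 21 somites. All 8 embryos had parents heterozygous for the allele, of mixed strain, and inherited an Oct4-ΔPE GFP reporter transgene from the father. The posterior of each embryo was digested with trypsin and its GFP-positive cells were sorted. Each group held 4 embryos, and a value rests on whatever GFP-positive cells 1 posterior gave. Levels are the authors' deposited array values, taken as log2, so a difference of 1 is a 2-fold difference. Levels of different genes are not set against each other, since each probe has its own response.

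Before S phase, the origin recognition complex, Cdc6 and Cdt1 load the MCM helicase onto DNA, and geminin (Gmnn) blocks further loading once replication has begun. Kinases, Cdc45 and the GINS complex then turn the loaded helicase on, and primase, polymerases, the Pcna clamp and its loader copy the strands. Entry into S phase is set by D-type cyclins with Cdk4 and Cdk6, by E-type cyclins with Cdk2, and by E2F transcription factors that switch on many of the replication genes. PGCs are known to divide while they migrate.

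The promoters of the list were searched for the sequence that E2F factors bind, which is read from the genome and not from these arrays. The E2F octamer was searched as TTTCCCGC, TTTGGCGC, TTTCGCGC or TTTGCCGC on either strand, in RefSeq windows from 250 bases before to 50 after a gene's start (GRCm38.p6). Of the 34 members with a window, 13 held at least 1 octamer (38.2%), against 704 of all 27025 genes with a window (2.60%). Among 56 other genes of DNA replication and the G1/S transition with a window, 20 held one (35.7%). The high share was thus not particular to the members. The shorter CCAAT box, searched on either strand, was in 21 of the 34 (61.8%), against 53.6% of the 56 and 41.1% of all genes with a window. A match is a run of letters and not a shown binding site. The 13 members were Cdc6, Cdk2, Cdt1, E2f3, Lig1, Mcm3, Mcm5, Mcm6, Mcm7, Orc1, Pola1, Pold1 and Rfc3, so 4 MCM subunits were among them. Mcm4, Gmnn, Gins1, Gins2, Ccnd1, Ccnd2, Ccne2 and Pole had no window and were not searched. The stretches around upstream octamers are shown for 6 genes at successive steps: the kinase Cdk2, the loader Cdc6, the helicase subunits Mcm5, Mcm6 and Mcm7, and the polymerase Pola1. Capitals mark the octamers, overlapping ones run together, and each stretch reads 5′ to 3′ on the strand of its gene.
Cdk2 (chr10:128705154-128705221, minus strand): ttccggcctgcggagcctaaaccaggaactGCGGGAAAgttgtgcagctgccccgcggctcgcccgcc
Cdc6 (chr11:98907983-98908050, plus strand): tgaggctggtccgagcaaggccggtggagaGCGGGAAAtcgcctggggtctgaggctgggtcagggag
Mcm5 (chr8:75109326-75109397, plus strand): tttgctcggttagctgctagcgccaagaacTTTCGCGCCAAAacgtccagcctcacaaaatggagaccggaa
Mcm6 (chr1:128359715-128359845, minus strand): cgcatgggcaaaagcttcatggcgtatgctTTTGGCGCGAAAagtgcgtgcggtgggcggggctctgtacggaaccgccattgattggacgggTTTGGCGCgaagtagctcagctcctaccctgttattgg
Mcm7 (chr5:138172011-138172078, minus strand): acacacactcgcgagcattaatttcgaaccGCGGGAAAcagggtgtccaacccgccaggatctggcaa
Pola1 (chrX:93632256-93632323, minus strand): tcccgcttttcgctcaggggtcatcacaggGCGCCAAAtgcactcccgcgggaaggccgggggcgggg
The 13 genes with an octamer had a median difference between mutant and WT of 0.06 and a median slope per somite of 0.02 (log2), and the 21 with a window but no octamer had 0.11 and 0.07.

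Mean levels of the 14 PGC markers ran from 4.18 for Fut4 to 12.43 for Ifitm3. Fut4 alone lay below the median of all gene means (5.61). The cells were sorted by an Oct4 reporter, so the level of Pou5f1 is no independent check of their identity. Pou5f1 (Oct4) averaged 11.24 ± 0.12 in mutants and 11.13 ± 0.18 in WT, and Dppa3 (Stella) 11.41 ± 0.11 in mutants and 11.27 ± 0.23 in WT (SD, n = 4 each). Array medians over all probes lay between 5.37 and 5.58. The array of WT embryo 3 stood apart. Its SD over all genes was 1.77, against 1.82 to 1.95 on the other 7 arrays, and its mean PGC marker level was 9.36, against 9.45 to 9.59. Of the 14 PGC markers 6 were lowest and 3 highest there. Its mean was above every other array for primitive erythroid markers (5.57, against 4.93 to 5.33, with 5 of 9 measured markers highest there), macrophage markers (5.21, against 4.69 to 4.99, 6 of 11), trunk mesenchyme markers (5.65, against 5.14 to 5.44, 2 of 10) and tailbud and neural markers (5.88, against 5.45 to 5.66, 5 of 8). Endothelial markers (5.50, against 5.40 to 5.53, 1 of 9 highest there) lay within the range of the others. So did hindgut endoderm markers (6.82, against 6.48 to 7.17, 2 of 8). Of all genes 24.2% were highest on this array, and of genes above the median level 14.3%. No marker of these lists was at 0, since array values have no true zero. WT embryo 3 and mutant embryo 4 also had high Xist (7.07 and 6.31), against 3.496 to 4.11 on the other 6 arrays. Their mean of Y-linked genes was low (3.74 and 3.71), against 7.21 to 7.73 on the other 6. By these genes both embryos were female and the rest male. With 22 and 21 to 22 somites both were among the younger embryos, so sex and stage are partly mixed. No fit held a term for sex, but both were left out together as an alternative. The labels give no batch.

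Low and high values of the 42 genes gathered on particular arrays. WT embryo 3 had the lowest value of all 8 arrays for 16 of the 42 genes (38.1%), while it was lowest for 12.1% of all genes and for 20.7% of genes above the median level, to which 41 of the 42 belong. These 16 were Mcm2, Mcm3, Mcm6, Pcna, Gmnn, Cdc45, Cdc7, Gins1, Rrm1, Rrm2, Rfc3, Rpa1, Rpa2, Prim1, Pole and Lig1. Mutant embryo 4 was lowest for 10 more (23.8%, against 10.5% of all genes and 14.8% of those above the median level): Mcm4, Ccne1, Ccnd2, Cdk6, Orc2, Orc6, Rfc4, Pola1, Pold1 and Fen1. Mutant embryo 3 and WT embryo 1 each had the highest value for 12 genes (28.6%). Among genes above the median level they were highest for 14.7% and 14.2%, and among all genes for 10.2% and 9.40%. The mean deviation of the 42 genes from their own means was 0.05, 0.00, 0.16 and -0.05 in mutant embryos 1 to 4, and 0.19, -0.07, -0.22 and -0.06 in WT embryos 1 to 4. The groups overlapped fully, with the extremes of both ends in WT. With all arrays set to 1 shared distribution (quantile normalization), the value of WT embryo 3 was -0.125 and that of WT embryo 1 was 0.12. With each array centred on its median they were -0.35 and 0.25. In sorted cells measured in bulk, fewer cells of a type and less RNA per cell cannot be told apart, and the part of other cell types in the values of WT embryo 3 was not tested.

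**Figure D1:**
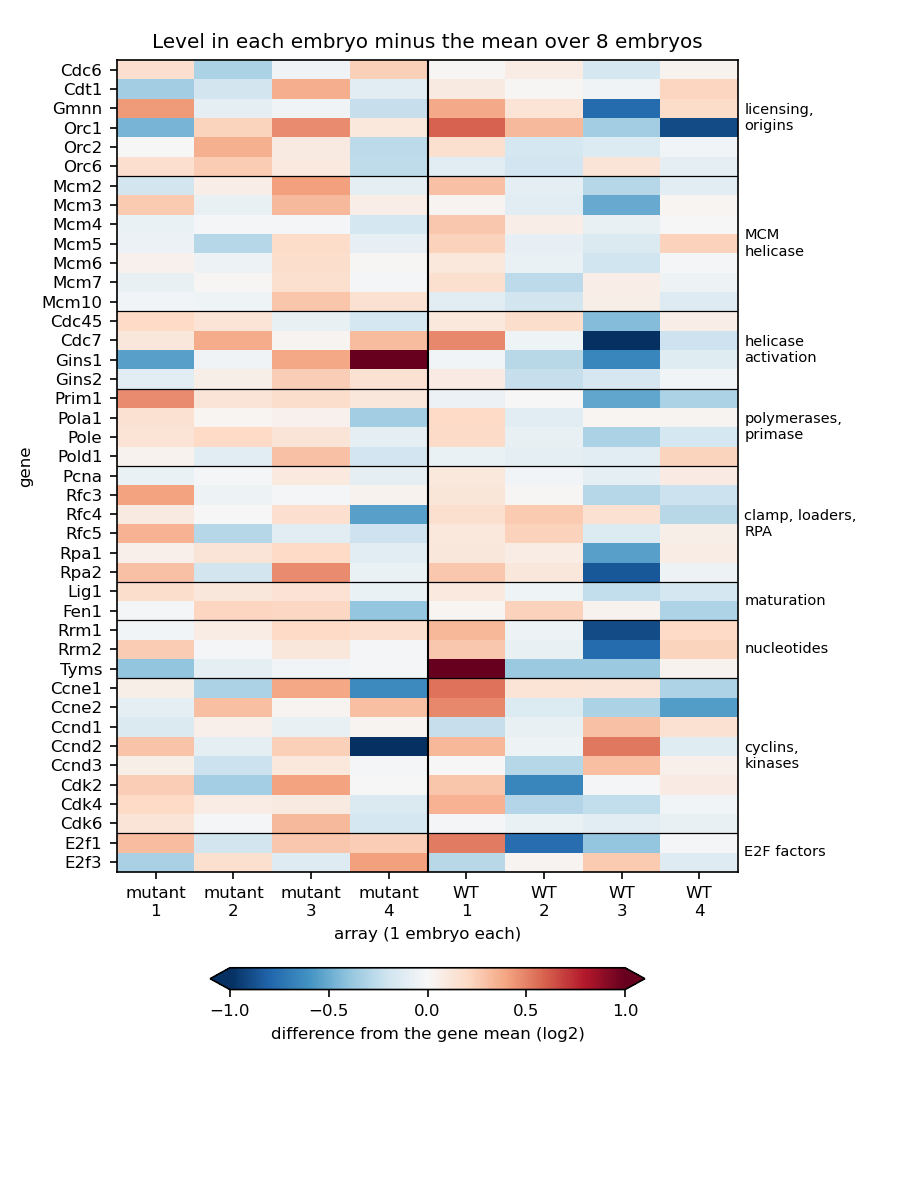
Each row is 1 of the 42 genes, grouped by role, and each column is 1 embryo, mutants left of WT. Colour gives the log2 level minus the gene's mean over the 8 embryos, cut at 1 either way. The column of WT 3 holds the lowest value of 16 genes, with Cdc7, Rrm1, Rpa2, Rrm2 and Gmnn deepest.

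**Figure D2:**
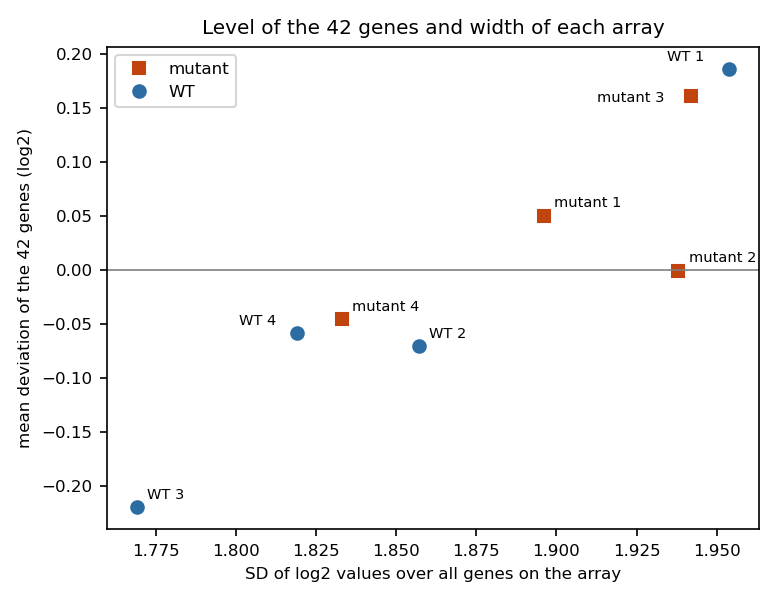
Each point is 1 array, with squares for mutant and circles for WT embryos. The horizontal axis gives the SD of log2 values over all genes and the vertical axis the mean deviation of the 42 genes from their means. WT 3 is lowest on both axes (1.77 and -0.22) and WT 1 highest on both (1.95 and 0.19).

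The mutant comparison asked whether a defective Ror2 receptor goes with another level of the replication machinery. None of the 42 genes passed the limma test with Benjamini-Hochberg adjustment over all genes (0 called, with 0% called among all 19938 genes, and a lowest adjusted p of 0.973). At an unadjusted p under 0.05 there was 1 member, Prim1 (2.38%), against 4.68% of all genes, and it was higher in mutants, as were 2.72% of all genes, while 1.96% were lower. Of the 42 differences, 30 lay above 0 (71.4%, against 44.6% of all genes), with a median of 0.10 against -0.02 over all genes (log2, mutant minus WT). Among the 9969 genes above the median level, 5726 differences lay above 0, with a median of 0.04. Differences ran from -0.34 for Ccnd2 to 0.54 for Gins1. Without WT embryo 3, 25 of the 42 lay above 0 with a median of 0.03, against 50.2% and 0.00 over all genes. After quantile normalization it was also 25 of 42, with a median of 0.035, against 52.3% and 0.01. After median centring 32 of 42 lay above 0 (76.2%, against 58.2% of all genes), with a median of 0.16 against 0.04. The all-gene count at an unadjusted p under 0.05 split into 796 higher and 230 lower, against 543 and 391 on the deposited values.

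The design bounds the size of any difference for most of the list. The 95% limma interval of the difference lay within 2-fold either way for 40 of the 42 genes, the exceptions being Cdc7 and Gins1, and within 1.5-fold for 27. All intervals but that of Prim1 held 0. Ror2 itself averaged 7.81 ± 0.34 in mutants and 7.69 ± 0.21 in WT (SD, n = 4 each), and since the allele changes 1 amino acid this level checks no label. The proliferation marker Mki67 averaged 9.24 ± 0.22 in mutants and 9.07 ± 0.12 in WT.

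**Figure D3:**
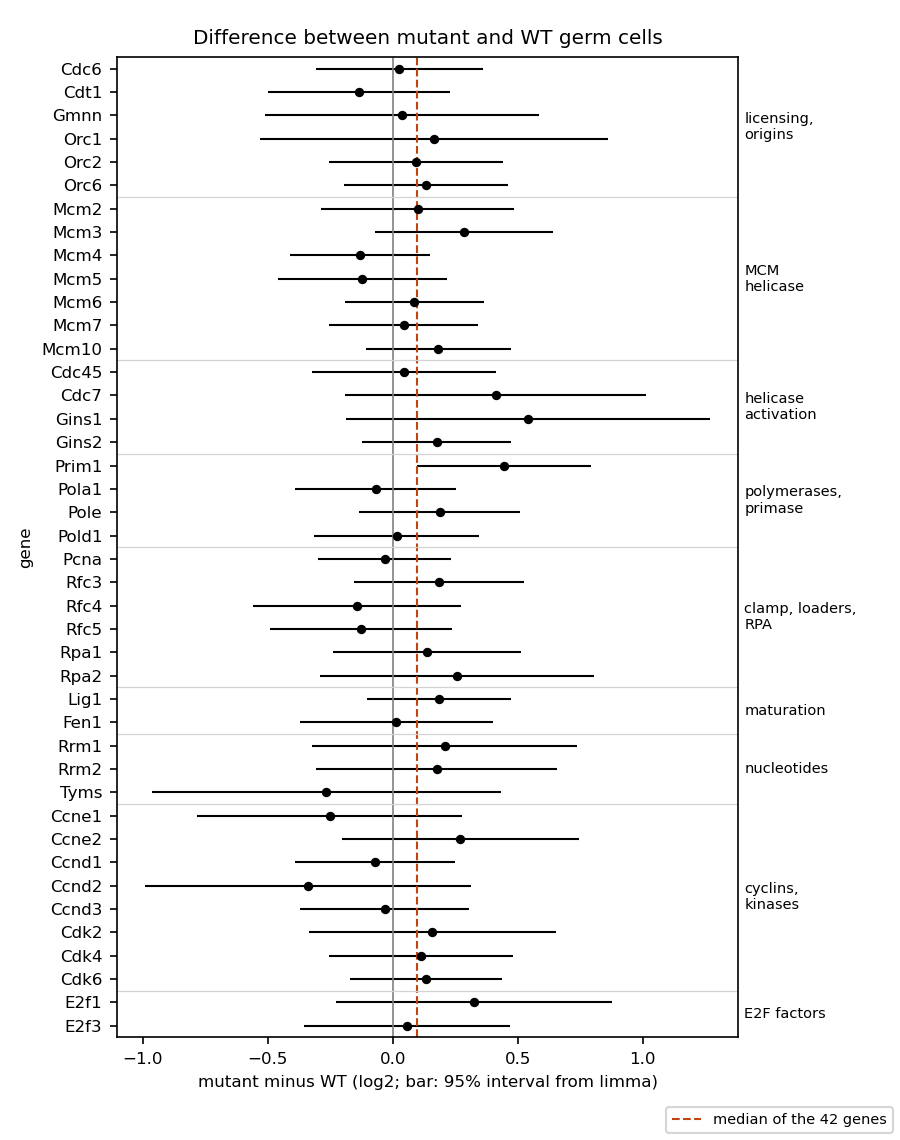
Points give the log2 difference, mutant minus WT, of each gene and bars its 95% limma interval, with genes grouped by role. The dashed line is the median of the 42 genes (0.10). Prim1 alone has an interval above 0 (0.10 to 0.79), and Cdc7 and Gins1 have the intervals that reach past 1.

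Prim1, the catalytic subunit of primase that lays down the RNA primers of each new strand, had the smallest p of the list. Its levels were 10.14, 9.79, 9.84 and 9.78 in mutants, against 9.61, 9.67, 9.15 and 9.35 in WT. All mutant values lay above all WT values, which held for 1 of the 42 genes and for 1.08% of all genes. No member had all mutants below all WT embryos (1.44% of all genes), so the groups were apart for 1 member, against 2.52% of all genes on either side. The difference was 0.44 ± 0.16 (SE), or 1.36-fold, with an unadjusted p of 0.0171 and a limma adjusted p of 0.973. Leaving out single embryos gave 0.35 without WT embryo 3 to 0.52 without WT embryo 2, and without mutant embryo 1, the highest, the unadjusted p was 0.0569. Pole, the polymerase of the leading strand, differed by 0.19 ± 0.14, Pold1, the catalytic subunit of polymerase delta, by 0.01 ± 0.15, and Pola1, the partner of primase, by -0.07 ± 0.15 (SE).

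The genes grouped as turning the helicase on had a median of 0.29, with all 4 differences above 0 and none past the test. This was the highest median of the 9 role groups as drawn here. Mcm10 (0.18), which also helps activate the helicase, was grouped with the MCM subunits. The ranking rests on that placement, since the E2F factors had a median of 0.19. Without WT embryo 3 the differences were 0.41 for Gins1, 0.15 for Gins2, 0.13 for Cdc7 and -0.09 for Cdc45, and Cdc45 was also at -0.007 after quantile normalization. Gins1, a subunit of the GINS complex, had levels of 8.13, 8.64, 9.06 and 9.95 in mutants, against 8.65, 8.40, 8.02 and 8.56 in WT. Mutant embryo 4 was far above the rest while mutant embryo 1 lay below 3 of the 4 WT embryos, so the difference of 0.54 ± 0.33 (SE) sat within a mutant SD of 0.77. It was 0.21 without mutant embryo 4 and 0.81 without mutant embryo 1, where the unadjusted p was 0.0201. Cdc7, the kinase that phosphorylates the loaded helicase, had 7.08, 7.34, 6.997 and 7.29 in mutants, against 7.45, 6.93, 5.92 and 6.77 in WT. Here the WT spread came from embryo 3, and WT embryo 1 held the highest value of all. Its difference was 0.41 ± 0.27, and 0.13 without WT embryo 3. Gins2 differed by 0.17 ± 0.14 and Cdc45 by 0.04 ± 0.17.

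The MCM subunits, which form the ring-shaped replicative helicase, had SDs of 0.09 to 0.26 after genotype and somite number were fitted. Mcm3 had the second smallest p of the list, with levels of 8.94, 8.61, 9.004 and 8.75 in mutants, against 8.71, 8.57, 8.18 and 8.70 in WT. Mutant embryo 2 fell inside the WT range and WT embryo 3 lay below all others, and the difference was 0.29 ± 0.16 (unadjusted p of 0.105), and 0.16 without WT embryo 3. Mcm4 went the other way, with 9.63, 9.68, 9.69 and 9.52 in mutants, against 9.97, 9.77, 9.62 and 9.70 in WT. All mutants lay below the 3 highest WT embryos, but 3 of them lay above WT embryo 3, for a difference of -0.13 ± 0.13. Mcm2 had 9.45, 9.70, 10.05 and 9.55 in mutants, against 9.93, 9.54, 9.35 and 9.53 in WT, with full overlap and a difference of 0.10 ± 0.18. Mcm5 differed by -0.12 ± 0.15, Mcm6 by 0.09 ± 0.13, Mcm7 by 0.04 ± 0.14 and Mcm10, which helps activate the helicase, by 0.18 ± 0.13.

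Origin and licensing genes differed by -0.14 to 0.17, with 5 of 6 above 0. Cdc6, which recruits the helicase to origins, had 7.43, 6.95, 7.24 and 7.51 in mutants, against 7.28, 7.35, 7.09 and 7.31 in WT. The mutant embryos held both the highest and the lowest value, and the difference was 0.03 ± 0.15. Cdt1, its partner in loading, had 7.48, 7.64, 8.18 and 7.72 in mutants, against 7.91, 7.83, 7.79 and 8.03 in WT. Mutant embryo 3 was highest and the other mutants lay below all WT embryos, for a difference of -0.14 ± 0.16. Gmnn, which inhibits Cdt1, had 9.03, 8.51, 8.57 and 8.37 in mutants, against 8.98, 8.74, 7.83 and 8.79 in WT. WT embryo 3 was 0.88 below the mean of the other 7 arrays, and the group difference was 0.04 ± 0.25, and -0.21 without that embryo. Among the subunits of the origin recognition complex, Orc1 differed by 0.17 ± 0.31, Orc2 by 0.09 ± 0.16 and Orc6 by 0.13 ± 0.15.

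Pcna, the sliding clamp that holds polymerases on DNA, was among the steadiest genes of the list. It had 11.66, 11.72, 11.82 and 11.64 in mutants, against 11.83, 11.70, 11.63 and 11.81 in WT, a difference of -0.03 ± 0.12. A second single-gene probe of Pcna gave values within 0.05 on every array. Of the clamp loader, Rfc3 differed by 0.18 ± 0.15, Rfc4 by -0.14 ± 0.19 and Rfc5 by -0.13 ± 0.16. Of the proteins that coat single-stranded DNA, Rpa1 differed by 0.14 ± 0.17 and Rpa2 by 0.26 ± 0.25, and both had their lowest value in WT embryo 3, without which the differences were -0.02 and 0.02. Lig1, which seals nicks, differed by 0.19 ± 0.13, and Fen1, which trims flaps, by 0.01 ± 0.17.

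Genes that supply nucleotides held some of the widest scatter. Rrm2, the small subunit of ribonucleotide reductase, had 9.98, 9.71, 9.83 and 9.71 in mutants, against 9.99, 9.65, 8.95 and 9.94 in WT. The mutants lay close together while WT embryo 3 lay far below the rest, and the difference was 0.18 ± 0.22, and -0.05 without that embryo. Rrm1, the large subunit, showed the same low value in WT embryo 3 (9.09, against 9.94 to 10.33 elsewhere), and its group difference was 0.21 ± 0.24, and -0.06 without that embryo. Tyms, which makes thymidylate, had 7.09, 7.40, 7.46 and 7.47 in mutants, against 8.73, 7.12, 7.12 and 7.53 in WT. WT embryo 1 stood over 1 unit above all others, and the difference was -0.27 ± 0.32, and 0.10 without that embryo.

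The D-type cyclins, which pair with Cdk4 and Cdk6 in G1, had differences below 0, none past the test. WT embryo 3 held the highest value of all 8 arrays for each of them. Without that embryo the differences were 0.01 for Ccnd1, -0.22 for Ccnd2 and 0.06 for Ccnd3. Ccnd2 had 8.40, 8.02, 8.36 and 7.004 in mutants, against 8.45, 8.06, 8.64 and 7.99 in WT. The low value of mutant embryo 4 sets most of its difference of -0.34 ± 0.29, which was -0.03 without that embryo. Ccnd1 had 5.37, 5.56, 5.44 and 5.55 in mutants, against 5.29, 5.44, 5.81 and 5.67 in WT. Its mutant values lay inside the WT range (difference -0.07 ± 0.14), and it is the member whose mean lies below the median of all genes (5.61). Ccnd3 had 9.20, 8.93, 9.25 and 9.13 in mutants, against 9.14, 8.86, 9.44 and 9.19 in WT, again nested within the WT range (-0.03 ± 0.15).

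The E-type cyclins, which drive Cdk2 at the G1/S boundary, differed in opposite directions. Ccne1 had 9.08, 8.71, 9.41 and 8.39 in mutants, against 9.57, 9.17, 9.15 and 8.72 in WT. The groups overlapped, with a difference of -0.25 ± 0.24. Ccne2 had 6.80, 7.20, 6.92 and 7.19 in mutants, against 7.37, 6.75, 6.57 and 6.33 in WT. Here 3 WT embryos lay below all mutants and WT embryo 1 above them, and the difference was 0.27 ± 0.21. Neither passed the test, and the difference between the cyclins was not tested.

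The kinases and E2F factors overlapped between groups. Cdk2 had 7.06, 6.47, 7.21 and 6.82 in mutants, against 7.09, 6.16, 6.79 and 6.89 in WT (difference 0.16 ± 0.22). Cdk4 had 11.14, 11.02, 11.04 and 10.80 in mutants, against 11.29, 10.65, 10.69 and 10.92 in WT (0.11 ± 0.17). Cdk6 had 6.50, 6.36, 6.70 and 6.20 in mutants, against 6.37, 6.31, 6.27 and 6.30 in WT (0.13 ± 0.14). For all 3 kinases 1 mutant embryo or more lay inside or below the WT range. E2f1, an activating E2F, had 8.34, 7.85, 8.30 and 8.28 in mutants, against 8.55, 7.27, 7.64 and 8.01 in WT. WT embryo 1 was highest and the other WT embryos spread downward, for a difference of 0.33 ± 0.25. E2f3, another activating E2F, had 7.68, 8.16, 7.88 and 8.42 in mutants, against 7.73, 8.04, 8.27 and 7.88 in WT (0.06 ± 0.19). Its probes did not agree: the second had 6.14, 7.20, 7.45 and 5.80 in mutants, against 7.46, 6.28, 6.42 and 7.57 in WT, so the embryo highest on 1 probe (mutant 4) was lowest on the other.

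Somite number is a measure of an embryo's stage. Slopes over it were fitted by limma with a term for genotype. None of the 42 genes passed (0 called, 0% of all genes called, lowest adjusted p of 0.485). At an unadjusted p under 0.05 there were 4 members, Ccne1, Prim1, Rfc4 and Orc1, all with positive slopes. This is 9.52% of the list, near the 9.74% of all genes (5.02% positive and 4.72% negative). Of the 42 slopes 32 were above 0 (76.2%, against 40.5% of all genes), with a median of 0.05 against -0.02 over all genes (log2 per somite). Among the 9969 genes above the median level, 5839 slopes lay above 0, with a median of 0.02. The members' slopes ran from -0.10 for Gins1 to 0.21 for Orc1. The members' median was 0.01 without WT embryo 3 and mutant embryo 4 (-0.01 over all genes) and 0.03 without WT embryo 3 alone (-0.015). It was -0.002 once the SD of each array's unnamed probes was added as a covariate (0 over all genes). Slopes above 0 then numbered 25 (8655 of all 19938 genes), 28 (66.7%, against 41.6%) and 20 (9977 of all genes) in turn. After quantile normalization 27 of 42 lay above 0 (64.3%, against 42.3%). After median centring 36 of 42 slopes were above 0 (85.7%, against 52.5% of all genes). The all-gene count at an unadjusted p under 0.05 split into 1419 positive and 491 negative, against 1000 and 942 on the deposited values.

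**Figure D4:**
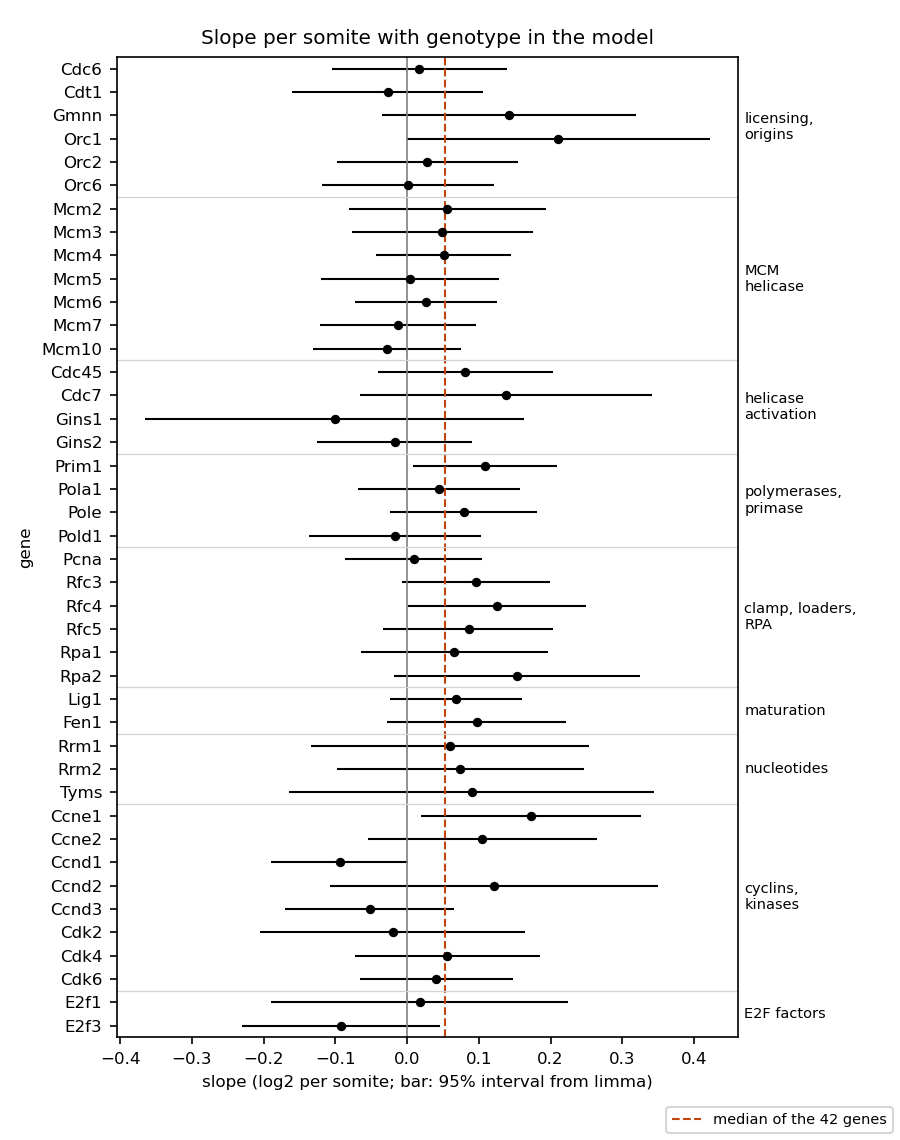
Points give the slope in log2 per somite of each gene, with genotype in the model, and bars its 95% limma interval. The dashed line is the median of the 42 genes (0.05). The clamp, loader and single-strand binding genes all lie above 0, between 0.01 and 0.15.

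Ccne1 had the smallest p of the positive slopes, 0.17 ± 0.07 per somite (SE, unadjusted p of 0.0308). In order of somite number its mutant levels were 8.39 at 21 to 22 somites, 8.71 at 22 to 23, 9.41 at 23 and 9.08 at 24, and its WT levels were 8.72 at 21, 9.15 at 22, and 9.57 and 9.17 at 25 somites. The youngest embryo of each genotype was the lowest, and the slope was 0.32 among mutants and 0.14 among WT. Leaving out single embryos kept the slope between 0.14 and 0.23. Prim1 had a slope of 0.11 ± 0.05, with 0.14 among mutants and 0.10 among WT. The mutant embryo of 24 somites was the highest of its group, and both WT embryos of 25 somites lay above those of 21 and 22.

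Rfc4, a subunit of the clamp loader, had 8.15 in the mutant of 21 to 22 somites, 8.69 at 22 to 23, 8.86 at 23 and 8.78 at 24, and in WT 8.41 at 21, 8.84 at 22, and 8.85 and 8.95 at 25 somites. The youngest embryo of each genotype again held the lowest level and the others lay close together (slope 0.13 ± 0.06, SE). Orc1, named here after its value was seen, had a slope of 0.21 ± 0.09 with an unadjusted p of 0.0499. Its slope was 0.32 among WT and -0.20 among mutants, so the genotypes did not share it. The other clamp, loader and single-strand binding genes had positive slopes as well, none past the test. They were 0.10 ± 0.05 for Rfc3, 0.09 ± 0.05 for Rfc5, 0.15 ± 0.08 for Rpa2, 0.07 ± 0.06 for Rpa1 and 0.01 ± 0.04 for Pcna.

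The negative slopes of smallest p belonged to cyclin and E2F genes. Ccnd1 had a slope of -0.09 ± 0.04 (SE, unadjusted p of 0.0550). It was at 5.55 in the mutant of 21 to 22 somites, 5.57 at 22 to 23, 5.44 at 23 and 5.37 at 24, and in WT at 5.67 (21 somites), 5.81 (22 somites), 5.29 and 5.44 (25 somites). The oldest mutant and both oldest WT embryos were the lowest of their groups. E2f3 had a slope of -0.09 ± 0.06, with 8.42 in the mutant of 21 to 22 somites and 7.68 in that of 24. Its WT values followed no such order. On the second probe of E2f3 the order of these mutants was reversed, with 5.80 and 6.14. Ccnd3 had a slope of -0.05 ± 0.05. The other genes given by embryo had slopes of -0.03 (Cdt1) to 0.14 (Gmnn), apart from Gins1.

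**Figure D5:**
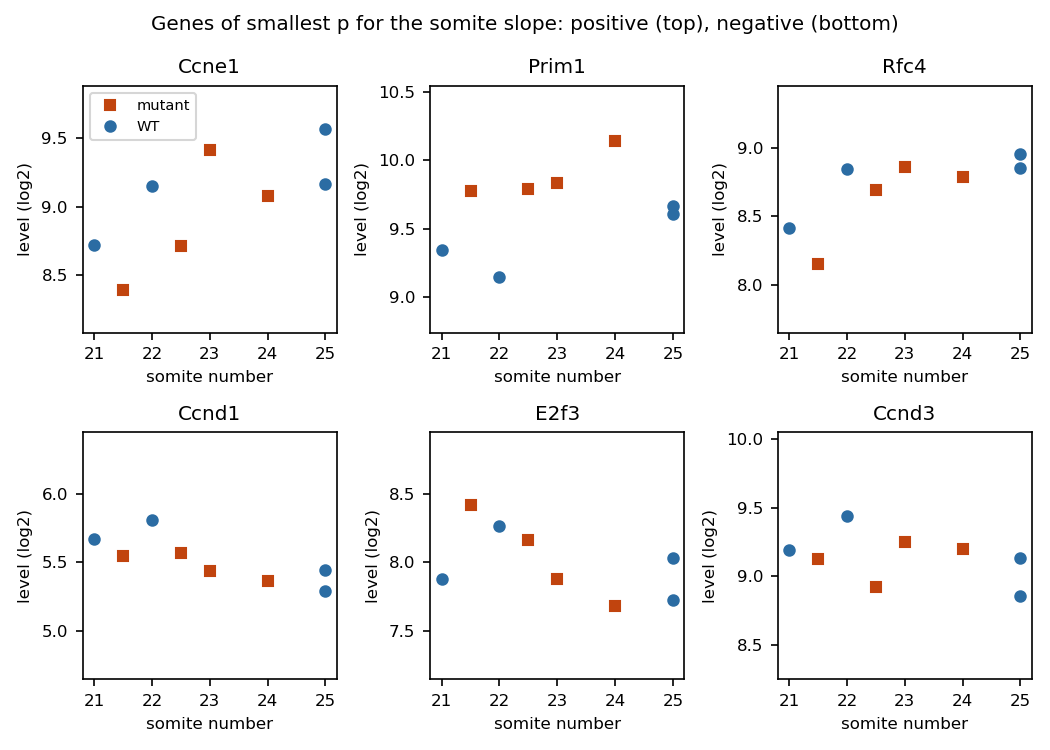
Log2 level against somite number for the 3 genes of smallest p in each direction of slope, squares for mutant and circles for WT embryos, with every panel spanning the same log2 range. Ccne1, Prim1 and Rfc4 have positive slopes (0.17, 0.11 and 0.13 per somite) and Ccnd1, E2f3 and Ccnd3 negative ones (-0.09, -0.09 and -0.05).

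Slopes were then compared between genotypes by the interaction term. No member passed (0 called, 0% of all genes, lowest adjusted p of 0.868). At an unadjusted p under 0.05 there were 4 members (9.52%), against 4.52% of all genes. Of these 1 was positive (2.14% of all genes) and 3 negative (2.38%), and 27 of the 42 terms lay above 0 (64.3%, against 53% of all genes). The mutant slope minus the WT slope was -0.71 ± 0.19 for Gins1, -0.52 ± 0.17 for Orc1, -0.35 ± 0.14 for Ccne2 and 0.55 ± 0.19 for Ccnd2 (SE). In Gins1 the mutant levels were 9.95 at 21 to 22 somites, 8.64 at 22 to 23, 9.06 at 23 and 8.13 at 24, while WT levels spanned 8.02 to 8.65 with a slope of 0.04. In Orc1 the mutant embryo of 24 somites had 6.95 and the others 7.52 to 7.89, and WT levels were 6.53 at 21 somites, 7.07 at 22, and 8.01 and 7.74 at 25. Without mutant embryo 4 the term was -0.47 (unadjusted p of 0.145) for Gins1 and 0.21 (0.437) for Ccnd2, and without mutant embryo 1 it was -0.09 (0.661) for Orc1. For Ccne2 the unadjusted p lay above 0.05 without WT embryo 1 (0.0615), WT embryo 4 (0.0791) or any of mutant embryos 1 to 4 (0.0595 to 0.199). Slopes had the same sign in both genotypes for 28 of the 42 genes. The same count was not made over all genes, so it shows no trait of the list.

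Another 66 measured genes of DNA replication and the G1/S transition gave these counts. None passed either test. For mutant against WT, 2 had an unadjusted p under 0.05 (3.03%, against 4.68% of all genes) and 37 lay above 0, with a median of 0.02. They were Rpa3, the small subunit of the single-strand binding complex, at 9.36, 8.97, 9.02 and 9.50 in mutants, against 8.83, 8.75, 8.48 and 7.97 in WT, and Mcm8, a helicase of DNA repair, with a difference of 0.62 ± 0.26 (SE). For Rpa3 all mutants lay above all WT embryos, and its difference was 0.70 ± 0.21 with a limma adjusted p of 0.973. The smallest p among lower genes belonged to E2f5 (-0.39 ± 0.20) and to the kinase inhibitor Cdkn2c (-0.21 ± 0.17).

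For the somite slope 9 of the 66 had an unadjusted p under 0.05 (13.6%, against 9.74% of all genes), 7 positive and 2 negative. Slopes above 0 numbered 46 (69.7%, against 76.2% of the 42 members and 40.5% of all genes). Their median over the 66 was 0.045, against 0.054 over the members, so the upward tilt was not particular to the members. Cdk1, the kinase of mitotic entry, had 8.46 in the mutant of 21 to 22 somites, 8.89 at 22 to 23, 8.98 at 23 and 9.24 at 24, and in WT 8.48 at 21, 8.52 at 22, and 9.39 and 9.60 at 25 somites. Its levels followed somite number in both genotypes, with a slope of 0.28 ± 0.04 (SE), an unadjusted p of 0.000103 and a limma adjusted p of 0.255. Prim2, the partner of Prim1 in primase, had a slope of 0.31 ± 0.07. The negative slopes of smallest p were -0.17 ± 0.05 for Timeless, a fork protection factor, and -0.30 ± 0.11 for Uhrf1, which brings DNA methyltransferase to replicated DNA.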

How the data were processed

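Per the labels' protocols, RNA of the sorted cells was isolated, then amplified and biotin-labelled with NuGEN kits. The authors deposited 1 value per probe and array, taken as log2 from its range (0.99 to 13.83), since no unit is named. The authors' background correction and normalization: not given in the sources used here. Values were used as deposited. Of 35557 probes 21789 had 1 gene symbol in the platform annotation, 1621 had several and 12147 were unnamed here. Genes with several probes (999) took the probe of highest mean. Tests used limma 3.58.1 in R 4.3.3 (lmFit, eBayes) over 19938 genes with Benjamini-Hochberg adjustment and a threshold of 0.05, for mutant minus WT, for the slope per somite with genotype in the model (midpoint where a label gives a range) and for their interaction. SE and 95% intervals are from limma, and SD is over embryos. The median SE of a difference was 0.17, and the number of arrays limits precision. The fits were tested on simulated data.

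Values in every embryo are given for the 3 members per direction of smallest p in each comparison and for 17 set genes. The 66 pathway genes give the 2 of smallest p per direction. The members and lists were chosen with earlier results of these data known. The alternatives were quantile normalization, median centring, genes above the median level, the mean of a gene's probes, array weights, covariates, other somite values and left-out embryos. Replicate numbers are shared between groups, but same-numbered arrays deviated with correlations of -0.19 to 0.10, so no pairing was assumed.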

Additional observations from a re-analysis of the deposited data

Results flagged for a closer look

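Among 84 groups of 4 embryos (42 genes in each genotype), 4 held an embryo whose gap to its nearest neighbour exceeded Dixon's critical share of the group's range, where chance flags about 1 group in 20. Prim1 was at 10.14 in mutant embryo 1, against 9.78 to 9.84 in the other mutants. E2f1 was at 7.85 in mutant embryo 2, against 8.28 to 8.34 in the other mutants. Rpa1 was at 8.77 in WT embryo 3, against 9.38 to 9.42 in the other WT embryos. Pold1 was at 8.85 in WT embryo 4, against 8.52 to 8.56 in the other WT embryos.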

How the results depend on the processing

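No member passed the adjusted test in any of the 3 comparisons under any alternative run. The count of members at an unadjusted p under 0.05 for mutant minus WT was 1 to 4 when single embryos were left out, with 4 without WT embryo 1. For the slope it was 1 to 7 in the same way. Without WT embryo 4 it was 7 (6 positive and 1 negative), and each of the other 7 left-out embryos gave 1 or 2. Against 4 on the deposited values, all positive, the slope count was 1 under quantile normalization and 1 in WT embryos only, both positive. It was 1, negative, with a covariate for the SD of unnamed probes, and 3 in mutants only (1 positive and 2 negative). It was 2 among genes above the median level, 2 with no genotype term and 2 with the upper end of the somite range. It was 0 without WT 3 and mutant 4 together and 0 with the replicate number as a block. The median slope was 0.014 without WT 3 and mutant 4, and -0.002 with the SD of unnamed probes, which is partly mixed with stage. The replicate block is no pairing, since arrays did not correlate best with their own number. Replicate number also partly follows stage. The WT and mutant embryos had 25 and 24 somites for number 1 and 25 and 22 to 23 for number 2. They had 22 and 23 for number 3, and 21 and 21 to 22 for number 4. The block thus takes up part of the somite differences and leaves little to fit a slope on.

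Signs also turned, for small and for some larger differences, among them those of Ccnd2, Tyms, Rrm1 and Rrm2. Without WT 3 and mutant 4 the difference was 0.092 for Ccnd2, 0.06 for Ccnd3, -0.104 for Cdc6, -0.132 for Gmnn and -0.021 for Rrm2. Median centring gave 0.028 for Ccnd3 and 0.028 for Pcna, array weights gave 0.013 for Ccnd3 and -0.014 for Cdc6, the mean of probes gave -0.115 for E2f3 and quantile normalization gave -0.003 for Gmnn, -0.007 for Cdc45, -0.025 for Fen1, -0.012 for Mcm7 and -0.021 for Pold1. Slopes turned with the replicate block (Ccnd2 -0.175, Cdk4 -0.036, Cdt1 0.117), in mutants only (Ccnd3 0.052, Ccne2 -0.173, Cdc6 -0.006, Cdk2 0.15, Mcm2 -0.011, Tyms -0.14) and with the SD of unnamed probes (Cdk6 -0.008, Mcm2 -0.116, Pcna -0.045, Rrm2 -0.004, Tyms -0.05). They also turned under quantile normalization (Cdc6 -0.014, E2f1 -0.017, Mcm5 -0.025, Orc2 -0.007, Orc6 -0.024), median centring (Cdk2 0.004, Mcm7 0.011, Gins2 0.007, Pold1 0.007), array weights (E2f1 -0.044, Pcna -0.00021), no genotype term (E2f1 -0.002) and without WT 3 and mutant 4 (Pcna -0.014, Rrm2 -0.01). All 42 genes were followed under quantile normalization, median centring and without WT 3, and under the other alternatives only the genes whose values are given by embryo. Without WT 3 the differences of genes outside that set turned to -0.057 (Rrm1), -0.094 (Cdc45), -0.02 (Rpa1) and -0.017 (Pold1), and the slopes to -0.02 (Mcm5) and -0.027 (Rrm1). With single embryos left out, differences in that set whose sign turned ran from -0.16 to 0.014 (Ccnd1), -0.132 to 0.062 (Ccnd3), -0.049 to 0.136 (Cdc6), -0.032 to 0.298 (Cdk2), -0.071 to 0.175 (E2f3), -0.215 to 0.168 (Gmnn), -0.021 to 0.214 (Mcm2), -0.053 to 0.294 (Rrm2) and -0.434 to 0.101 (Tyms). Slopes ran from -0.096 to 0.085 (Cdk2), -0.004 to 0.122 (Cdk4), -0.043 to 0.003 (Cdt1), -0.109 to 0.141 (E2f1), -0.006 to 0.036 (Pcna) and -0.095 to 0.219 (Tyms). The causes were not tested. With 4 arrays per group, small differences cannot be resolved.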
